A study of Mus musculus with 13 samples.

Results

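The genes described here are 8 matrix metalloproteinases, Mmp2, Mmp9, Mmp12, Mmp13, Mmp14, Mmp15, Mmp19 and Mmp25, and 2 of their inhibitors, Timp2 and Timp3. They were chosen by name and located through their Ensembl identifiers in a table of liver RNA counts for 53465 genes, and all 10 were found. The expression filter of edgeR kept 13545 genes of the table and 8 of the 10, while Mmp9 and Mmp25 fell below it.

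Liver RNA was sequenced from 6 WT and 7 Nod2-/- mice, 1 library per mouse. All were male BALB/c mice that had received DMBA (dimethylbenz[a]anthracene, a carcinogen) as pups and were kept on HFD (high-fat diet), and the labels give an age of 30 weeks and the disease state cancer for every mouse of both genotypes. The time on HFD that the paper states for the sequenced mice is slightly longer than this label age, and the difference was not resolved. The Nod2-/- mice carry a deletion of Nod2, an intracellular sensor of bacterial peptidoglycan, in all cells, and were bred as a line of their own, not as littermates of the WT mice. The comparison is thus between genotypes under a single regimen that both share. The labels give no tumor load for a mouse and do not say whether the liver sample held tumor. The authors report liver tumors in a larger share of Nod2-/- than of WT males under this regimen. The part of tumors in any difference between the genotypes was not tested. In such bulk samples, fewer cells of a type and less RNA per cell cannot be told apart.

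Matrix metalloproteinases are zinc-dependent endopeptidases that cut collagens, laminins, fibronectin and other parts of the extracellular matrix, and also release growth factors and cytokines from cell surfaces. The family holds gelatinases (Mmp2, Mmp9), collagenases (Mmp13), the macrophage elastase (Mmp12), enzymes kept at the plasma membrane by a transmembrane segment (Mmp14, Mmp15) or a lipid anchor (Mmp25), and others such as Mmp19. TIMPs block the active enzymes, and Timp2 has a further role, since Mmp14 and Timp2 on the cell surface form the complex in which pro-Mmp2 is activated. In liver these proteinases are known from fibrosis and its resolution and from tumor invasion, with hepatic stellate cells, macrophages, neutrophils and endothelial cells among their sources.

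Promoter windows, from 250 bases before to 50 bases after the annotated start, were held for 7 of the 10 genes in a table drawn from RefSeq on build GRCm38.p6. The table held none for Mmp2, Mmp9 and Mmp19, and 2 starts for Mmp12. The windows printed are those of Mmp14, the gene past the threshold, of Mmp15 and Timp3, the pair that varied most alike between mice, and of Mmp12 and Mmp13, neighbors on chromosome 9 that also varied alike. Sequences run 5′ to 3′ on the strand of the gene and are those of the reference strain, not of BALB/c mice. Capitals mark matches on either strand to the AP-1 site (TGANTCA), the TATA box (TATAAA) or the GC box (GGGCGG), and matches to different motifs did not overlap.
Mmp14 (chr14:54431348-54431647, + strand): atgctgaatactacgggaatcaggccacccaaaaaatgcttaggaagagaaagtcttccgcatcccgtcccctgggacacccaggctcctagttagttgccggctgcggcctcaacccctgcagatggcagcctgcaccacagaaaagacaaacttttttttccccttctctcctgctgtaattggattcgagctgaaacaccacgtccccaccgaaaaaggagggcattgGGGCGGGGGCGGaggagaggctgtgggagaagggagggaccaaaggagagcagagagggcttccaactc
Mmp15 (chr8:95352046-95352345, + strand): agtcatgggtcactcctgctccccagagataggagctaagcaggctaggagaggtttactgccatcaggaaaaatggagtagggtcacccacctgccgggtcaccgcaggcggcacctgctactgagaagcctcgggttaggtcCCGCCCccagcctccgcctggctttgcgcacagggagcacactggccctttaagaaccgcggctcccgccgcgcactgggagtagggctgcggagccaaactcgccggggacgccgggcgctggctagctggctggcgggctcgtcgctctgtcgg
Timp3 (chr10:86300162-86300461, + strand): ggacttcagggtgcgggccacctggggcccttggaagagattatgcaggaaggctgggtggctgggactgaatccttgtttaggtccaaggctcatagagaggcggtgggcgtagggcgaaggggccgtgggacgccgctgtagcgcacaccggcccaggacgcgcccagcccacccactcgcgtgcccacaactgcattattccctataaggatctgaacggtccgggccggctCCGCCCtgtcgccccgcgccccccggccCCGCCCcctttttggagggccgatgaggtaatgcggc
Mmp13 (chr9:7272264-7272563, + strand): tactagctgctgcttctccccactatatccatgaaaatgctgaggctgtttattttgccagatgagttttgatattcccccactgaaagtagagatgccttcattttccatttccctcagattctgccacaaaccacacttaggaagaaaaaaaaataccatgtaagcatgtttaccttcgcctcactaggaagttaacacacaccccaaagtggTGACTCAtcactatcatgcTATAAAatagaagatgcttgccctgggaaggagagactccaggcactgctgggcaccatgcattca
Mmp12, second start (chr9:7347124-7347423, + strand): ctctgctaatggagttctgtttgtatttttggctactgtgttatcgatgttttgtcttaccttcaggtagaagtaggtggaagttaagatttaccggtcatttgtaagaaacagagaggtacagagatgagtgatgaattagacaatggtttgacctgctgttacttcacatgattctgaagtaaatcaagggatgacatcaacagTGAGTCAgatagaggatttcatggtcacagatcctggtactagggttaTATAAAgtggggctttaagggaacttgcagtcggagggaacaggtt

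The letters of the AP-1 site were found in Mmp13, with their first base at position -35 from the start (position 0), and at the second start of Mmp12, at position -44, and stood in 7.81% of all 32851 promoter windows of the table. The same pair of windows held the TATA box, at positions -16 and 4, as did 13.6% of all windows. The window at the first start of Mmp12, which is not printed, held no match to any of the motifs. Mmp14, Mmp15, Mmp25, Timp2 and Timp3 held 1 or 2 GC boxes and neither other motif, and 35.7% of all windows held a GC box. The GC boxes of Mmp14 abutted each other, at positions -19 and -13. GC content was 56% in the window of Mmp14, 66% in Mmp15 and 67% in Timp3, against 43.7% in Mmp13 and 40.7% at the second start of Mmp12. These matches describe letters and were not tied to binding of any factor.

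Library totals ran from 14886273 to 20579984 counts in WT mice and from 13824780 to 19391431 in Nod2-/- mice. Nod2 itself had at most 4 counts in a WT mouse and 6 in a Nod2-/- mouse, so it could not check the genotype labels. Nod2-/- replicate 7 stood apart in the summed level of 12 neutrophil genes, at 4298 CPM (counts scaled by library size) against 69.5 to 1046 CPM in the other Nod2-/- mice and 14.0 to 135 CPM in WT mice. Lcn2 alone had 54924 raw counts in that mouse, beside 7529 of S100a9, the next most abundant of the 12. The highest WT counts of these genes were 2337 and 73, so the sum mostly followed Lcn2. WT replicate 3 was the highest WT mouse for 9 of the 13 gene lists examined, and Nod2-/- replicate 4 was the highest Nod2-/- mouse for 9 of 13. All 8 hepatocyte markers were measured in every group, with Alb the most abundant, while lung epithelium genes, which liver should lack, summed to 14.3 to 199.7 CPM in WT mice and 2.93 to 33.4 CPM in Nod2-/- mice.

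Among the members, Mmp14 alone passed the test between genotypes and was higher in Nod2-/- mice. The quasi-likelihood test of edgeR, adjusted by the Benjamini-Hochberg procedure over the 13545 genes at a threshold of 0.05 (5% FDR), called 1 of the 8 tested members, where 1.16% of all genes tested were called and 0.65% were called as higher. The two-sided p before adjustment was under 0.05 for the same 1 of 8, against 23.1% of all genes. Of the 8 members, 2 had a higher and 6 a lower fitted level in Nod2-/- mice, with a median log2 fold change of -0.14, beside 0.016 over all genes tested, of which 52.3% were higher. The 2 higher members were Mmp14 and Mmp13, and Mmp13 met the expression filter mostly through Nod2-/- mice. DESeq2 also called 1 member, Mmp14, where it called 8.41% of its 14370 genes, 4.38% as higher and 4.03% as lower.

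**Figure D1:**
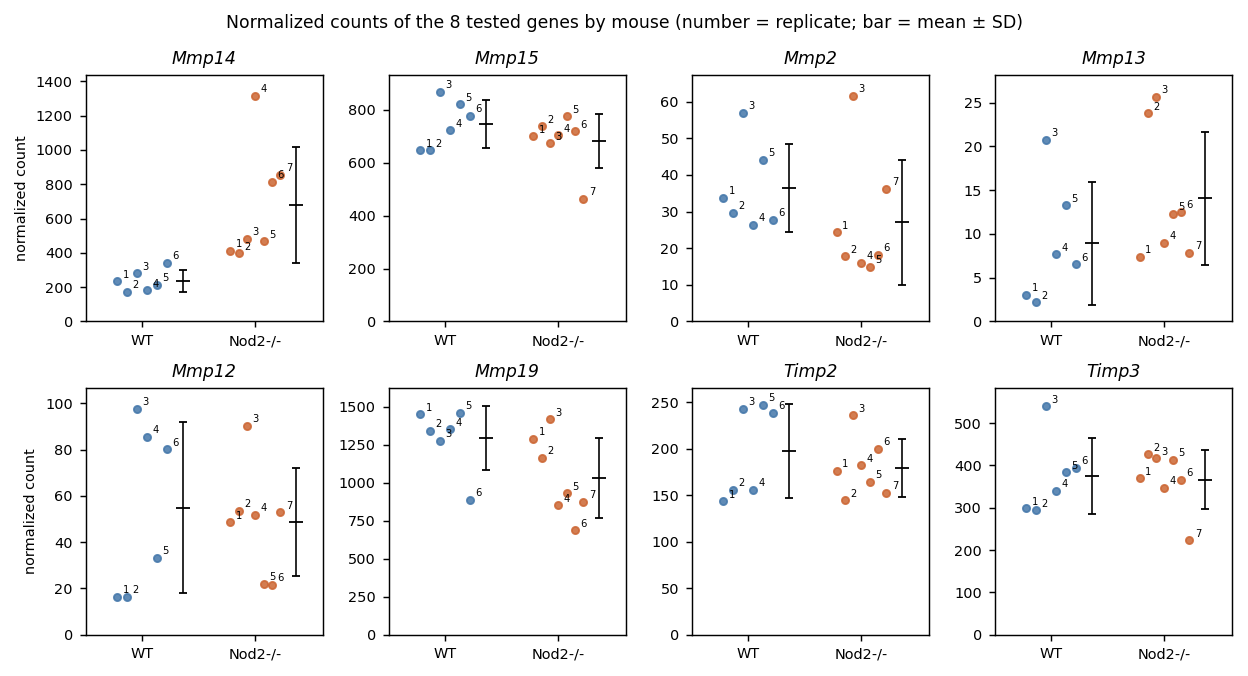
Normalized counts (scaled to a common effective library size) on the vertical axis for each tested gene, with WT mice in blue and Nod2-/- mice in orange; each point is 1 mouse with its replicate number, and the bar beside each group is the mean ± SD. Mmp14 is the panel in which the groups do not overlap, from 173 to 342 in WT mice and from 397 to 1314 in Nod2-/- mice.

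Mmp14, also called MT1-MMP, is a collagenase of the cell surface and the activator of pro-Mmp2 (ENSMUSG00000000957.11, GRCm38 chromosome 14, 54431612 to 54445364). Raw counts were 228, 158, 311, 165, 192 and 418 in WT replicates 1 to 6 and 389, 400, 468, 1318, 531, 716 and 871 in Nod2-/- replicates 1 to 7. Every Nod2-/- mouse lay above every WT mouse after normalization, and replicates 4, 6 and 7 lay far above the other Nod2-/- mice. Groups did not overlap for 1 of the 8 tested members and for 1.44% of all genes tested, with 0.753% non-overlapping and higher.

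With each library scaled to 16581214 counts, the mean effective size of the 13 libraries, the normalized count of Mmp14 was 237 ± 64.6 (SD, n = 6) in WT and 677 ± 339 (SD, n = 7) in Nod2-/- mice, a ratio of 2.85 between the means and of 2.16 between the medians. The log2 fold change was 1.51 ± 0.29 (SE), with an adjusted p of 0.0275 by edgeR, rank 54 of all genes by p. DESeq2 gave 1.497 ± 0.284 (SE) and an adjusted p of 4.4e-05. The two-sided exact permutation test over the 1716 splits of the 13 mice, on log2(CPM + 1), gave p = 0.000583 (n = 6 and 7), the smallest that these group sizes allow, and 10 members were tested this way without adjustment. Spread differed between the groups, with a coefficient of variation of 27.23% in WT and 50.04% in Nod2-/- mice. Leaving out any 1 of WT replicates 1, 2, 4 and 5 or Nod2-/- replicate 7 raised the adjusted p of edgeR above 0.05 (0.0567 to 0.0813), while the log2 fold change stayed between 1.26 and 1.64 over all 13 fits that each left out a mouse.

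**Figure D2:**
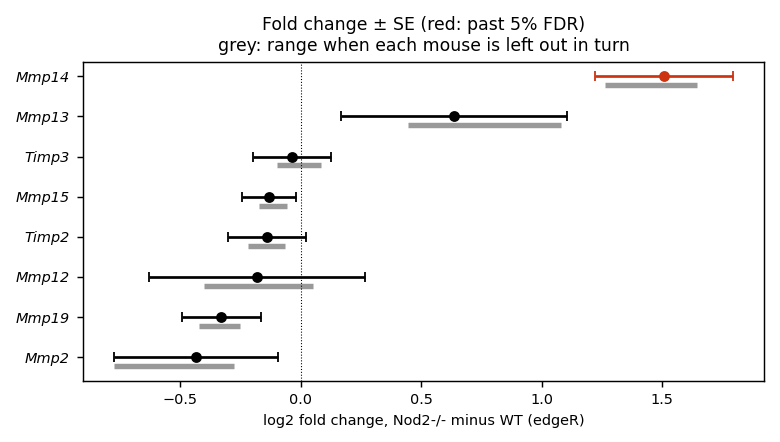
Log2 fold change of each tested gene (horizontal axis, Nod2-/- minus WT, edgeR), with points and bars for the estimate ± SE and grey bands for the range of the estimates when each mouse is left out in turn. Mmp14 at 1.51 ± 0.29 is drawn in red as the member past 5% FDR, and the grey bands of Timp3 and Mmp12 cross 0.

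Levels of marker genes of cell types that can carry Mmp14 are given beside it. The 12 stellate cell and fibroblast markers, of which 11 were tested and 0 passed 5% FDR (2 were higher at an unadjusted p under 0.05 by edgeR, against 12.9% of all genes tested, and 0 were called by DESeq2), summed to 92.2 to 231 CPM in WT and 94.4 to 136 CPM in Nod2-/- mice. Reln had 1260 normalized counts on average in WT mice and 2808 in WT replicate 3, beside a WT mean of 183 for Lrat, the next most abundant. The sum thus mostly followed Reln. The 8 Kupffer cell and macrophage markers summed to 115 to 213 CPM in WT and 144 to 429 CPM in Nod2-/- mice, with 2 higher at an unadjusted p under 0.05, 0 called by DESeq2 and a median log2 fold change of 0.46. The highest sum was that of Nod2-/- replicate 7, with the next Nod2-/- mouse, replicate 5, at 228 CPM. Without replicate 7 the median was 0.212, and 1 marker was higher at an unadjusted p under 0.05 by edgeR. The 8 liver endothelial markers summed to 215 to 297 CPM and 233 to 291 CPM, with 3 higher at an unadjusted p under 0.05, 1 called as higher by DESeq2 and a median of 0.17. In the 8 lipid-associated macrophage markers the ranges were 239 to 380 CPM in WT and 327 to 699 CPM in Nod2-/- mice. Ctsd was the most abundant gene in that sum, at 3810 normalized counts on average in WT mice, beside 431 for Fabp5, the next. Of the 8 lipid-associated macrophage markers, 7 had a higher fitted level, 5 of them at an unadjusted p under 0.05, and the median was 1.052. Those 5 were Cd9, Cd63, Fabp5, Lpl and Lgals3. Trem2 had a log2 fold change of 0.109 ± 0.345 (SE), and Gpnmb, the 1 with a lower fitted level, -1.288 ± 0.664 (SE). DESeq2 called 3 as higher (4.38% of all its genes). In the Kupffer cell, endothelial and lipid-associated macrophage lists 0 passed 5% FDR by edgeR. The 8 cholangiocyte and progenitor markers summed to 37.2 to 218 CPM and 109 to 403 CPM, and 1 of the 7 tested, Sox9 (a transcription factor of bile duct cells), rose by 1.29 ± 0.25 (SE) on the log2 scale, adjusted p = 0.0324 by edgeR, where 0.65% of all genes tested were called as higher. Of the 7, 4 had a higher fitted level, and Krt7 (-0.047), Krt19 (-0.397) and Muc1 (-0.419) a lower one, 0 of them past 5% FDR. Spp1 had 1452 normalized counts on average in WT mice, beside 49.7 for Sox9, the next most abundant, so the sum mostly followed Spp1. Nod2-/- replicate 4, the highest mouse for Mmp14, was also the highest Nod2-/- mouse for the endothelial, lipid-associated macrophage and cholangiocyte lists and for the hepatocyte markers. No marker in these lists was at 0 in all mice, and their part in the Mmp14 difference was not tested.

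Several genes near Mmp14 were called as well. Within 1 Mb of it, 26 genes were tested and 6 were past 5% FDR, and chromosome 14 held 4.9% called genes against 1.02% on the other chromosomes. Ajuba, a LIM domain protein of cell junctions, rose by 1.80 on the log2 scale (edgeR, adjusted p = 0.0422), and Psmb5, a catalytic subunit of the proteasome, by 0.68 (adjusted p = 0.00435). Cebpe, a transcription factor of granulocyte maturation, rose by 8.09 (adjusted p = 4.5e-08) from 0.471 ± 0.524 (SD, n = 6) to 169 ± 52.8 (SD, n = 7) normalized counts, and Ppp1r3e, a glycogen-targeting subunit of protein phosphatase, by 1.98 (adjusted p = 1.4e-05). At its WT level, Cebpe could meet the expression filter only through the Nod2-/- mice. Haus4, of the augmin complex, fell by 0.588 on the log2 scale and Ngdn by 0.534. All 6 lay on the distal side of Mmp14, between 110 and 581 kb away, where 20 of the 26 tested genes lie, and the nearest neighbors Mrpl52 (0.297 ± 0.189, SE) and Lrp10 (0.320 ± 0.132, SE) did not pass the test. The part of this neighborhood in the Mmp14 difference was not tested.

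**Figure D3:**
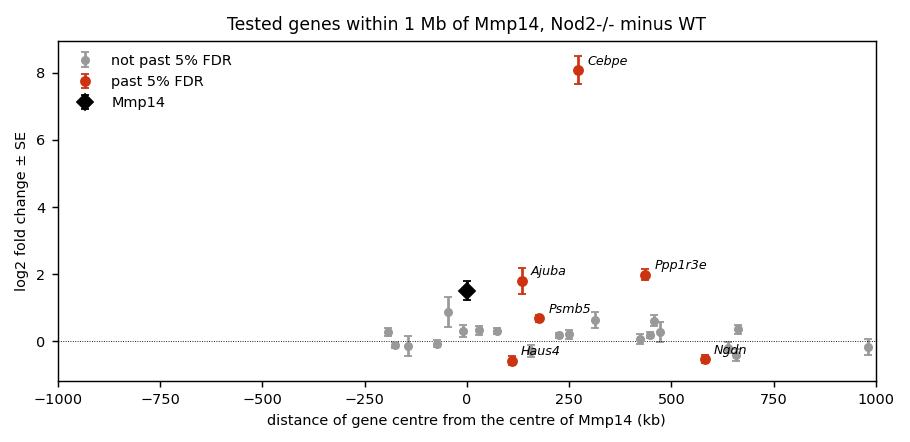
Log2 fold change ± SE (vertical axis, Nod2-/- minus WT) of the 26 tested genes within 1 Mb of Mmp14 against the distance between gene centers in kb. Mmp14 is the black diamond, the 6 genes past 5% FDR are red and named, and all 6 lie to the right, as do 20 of the 26 tested genes, with Cebpe highest at 8.09.

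Mmp15, the other member with a transmembrane anchor, was more abundant per kb of exon than Mmp14 in WT mice and did not pass the test (ENSMUSG00000031790.8, chromosome 8, 95352268 to 95375080). Its normalized counts ran from 647 to 869 (median 750) in WT and from 465 to 776 (median 704) in Nod2-/- mice. The ranges overlapped except for Nod2-/- replicate 7, which lay below every WT mouse. The log2 fold change was -0.13 ± 0.11 (SE), with an adjusted p of 0.503 by edgeR.

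Mmp2, a gelatinase of stellate cells and fibroblasts (ENSMUSG00000031740.8, chromosome 8, 92827291 to 92853420), had normalized counts of 26.3 to 56.9 (median 31.7) in WT and 14.9 to 61.6 (median 18.2) in Nod2-/- mice. In 5 of the 7 Nod2-/- mice it lay below every WT mouse and in 1, replicate 3, above every WT mouse. The log2 fold change of -0.43 ± 0.34 (SE) did not pass the test (adjusted p = 0.454 by edgeR). Mmp2 and Mmp15 lie 4.14 and 6.66 Mb from Nod2 on the chromosome that carries the deletion, and of 148 genes tested within 10 Mb of Nod2, 2 were past 5% FDR as higher and 3 as lower, a share of 3.38% beside 1.16% of all genes tested and 1.07% of those on chromosome 8.

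The called neighbors of Mmp2 and Mmp15 are the same genes as those counted above within 10 Mb of Nod2. Within 1 Mb of Mmp2, 1 of 10 tested genes passed, the carboxylesterase Ces1g, which fell by 4.13 on the log2 scale (adjusted p = 0.000189 by edgeR). Within 1 Mb of Mmp15, 4 of 28 passed: Arl2bp, which rose by 3.63, Cpne2, which rose by 1.07, Herpud1, which fell by 0.545, and Gm15889, which fell by 1.38. Around Mmp25, Traf7 (0.468) was the 1 of 32 that passed, and around Mmp9, Mmp12, Mmp13, Mmp19, Timp2 and Timp3 0 passed. Over all genes tested the share was 1.16%, and on chromosome 8, which holds Mmp2 and Mmp15, it was 1.07%.

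Mmp9, the gelatinase stored in neutrophil granules and also made by macrophages, had few counts outside 1 mouse (ENSMUSG00000017737.2, chromosome 2, 164940780 to 164955850). Raw counts were 0, 1, 3, 2, 0 and 5 in WT replicates 1 to 6 and 3, 1, 11, 6, 9, 8 and 230 in Nod2-/- replicates 1 to 7. In 5 of 7 Nod2-/- mice the normalized count exceeded every WT mouse, and replicate 7 held 85.4% of the sum over Nod2-/- mice. Without replicate 7 the Nod2-/- mean was 6.41 ± 3.83 (SD, n = 6), beside 1.68 ± 1.62 (SD, n = 6) in WT mice.

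The size of the Mmp9 difference depended on how that mouse was handled. The exact permutation test on log2(CPM + 1), two-sided and unadjusted, gave p = 0.0344 over all mice (n = 6 and 7) and 0.0238 without replicate 7 (n = 6 and 6). Mmp9 was below the edgeR filter, and without the filter its log2 fold change was 4.28 ± 1.17 (SE) with an adjusted p of 0.0898 over 27602 genes. DESeq2 replaced the 230 counts of replicate 7 by 4 as an outlier and gave 1.76 ± 0.71 (SE), with no adjusted p. With this replacement turned off, which was chosen after seeing the data, DESeq2 gave 4.44 ± 1.26 (SE) and an adjusted p of 0.0131.

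Mmp25, a lipid-anchored proteinase of neutrophils, showed the same mouse (ENSMUSG00000023903.7, chromosome 17, 23628311 to 23645277). It had 28 counts in Nod2-/- replicate 7, which held 93.5% of the Nod2-/- sum, and at most 1 count in any other mouse of either genotype. The exact permutation p was 0.657, two-sided and unadjusted (n = 6 and 7), and at this depth no difference was detectable in the other Nod2-/- mice. DESeq2 replaced the 28 counts by 0, and edgeR without a filter gave an adjusted p of 0.211.

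The summed level of neutrophil genes was highest in the same mouse, Nod2-/- replicate 7, while the marker Prtn3 was highest in Nod2-/- replicate 4. Of the 12 markers listed for that cell type, 6 were tested and all 6 had a higher fitted level in Nod2-/- mice at an unadjusted p under 0.05 (12.9% of all genes tested), 0 passed 5% FDR by edgeR, and DESeq2 called 5 as higher (4.38% of all its genes). Prtn3, with a WT median of 5.82 normalized counts and a lowest Nod2-/- value of 12.9, met the expression filter through the Nod2-/- mice. Its higher level was thus partly fixed by the filter. S100a9, which encodes a subunit of calprotectin, had a log2 fold change of 4.85 ± 1.26 (SE) and an adjusted p of 0.0656 by edgeR, and the granule protease Prtn3 one of 4.97 ± 1.17 (SE) and 0.0549. The other 6 markers, among them the granule genes Ngp, Ltf and Mpo, had at most 9 counts in a WT mouse. The WT and Nod2-/- ranges of the summed level overlapped, and without replicate 7 the 6 tested markers still had a higher fitted level, with a median log2 fold change of 1.963 in place of 4.352. The part of neutrophil content in the Mmp9 and Mmp25 values was not tested.

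**Figure D4:**
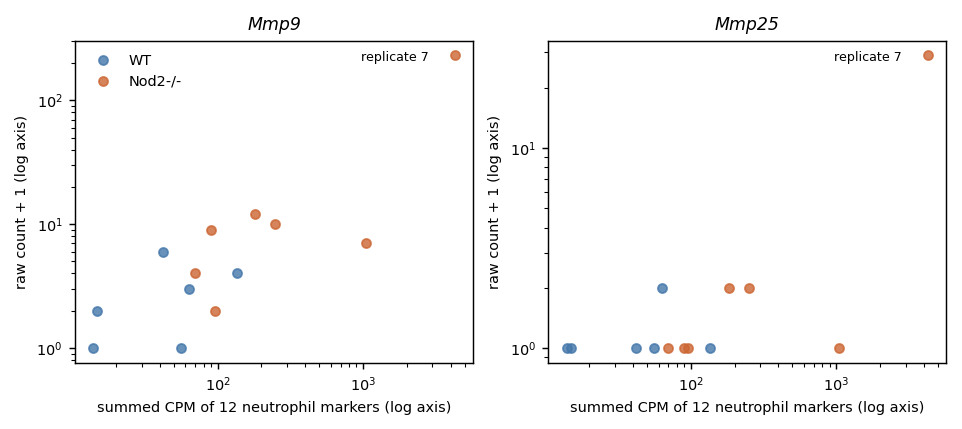
Raw count + 1 of Mmp9 (left) and Mmp25 (right) on a log axis against the summed CPM of 12 neutrophil markers on a log axis, with 1 point per mouse, WT in blue and Nod2-/- in orange. Lcn2 is the most abundant gene in that sum. Nod2-/- replicate 7, with 230 and 28 counts, is at the upper right of both panels, and Nod2-/- replicate 4, with the second highest marker sum (1046 CPM), has 6 counts of Mmp9 and 0 of Mmp25.

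Mmp12 and Mmp13, neighbors on chromosome 9, were low and varied widely within each genotype. Mmp12, the elastase of macrophages (ENSMUSG00000049723.14, 7344381 to 7369499), had normalized counts of 16.4 to 97.6 (median 56.7) in WT and 21.6 to 90.4 (median 51.9) in Nod2-/- mice, ranges that overlapped almost wholly. Its log2 fold change was -0.18 ± 0.45 (SE), with an adjusted p of 0.840 by edgeR, and it turned to 0.051 without WT replicate 3. Mmp13, the main interstitial collagenase of rodents (ENSMUSG00000050578.10, 7272514 to 7283331), had 2.19 to 20.8 (median 7.11) and 7.403 to 25.68 (median 12.3). The log2 fold change of 0.64 ± 0.47 (SE) did not pass the test (adjusted p = 0.428 by edgeR), and 2 Nod2-/- mice lay above every WT mouse. Mmp13 met the expression filter mostly through Nod2-/- mice, and fell below it without any 1 of Nod2-/- replicates 2, 3, 5 and 6. Its higher direction was thus partly fixed by the filter. Of Mmp12, 157 exonic bases overlap Mmp1b on the opposite strand, which had 0 counts in all mice.

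Mmp19, a proteinase that cuts basement membrane proteins, was the most abundant proteinase of the set in both genotypes (ENSMUSG00000025355.7, chromosome 10, 128790910 to 128800824). Normalized counts ran from 889 to 1462 (median 1347) in WT and from 687 to 1419 (median 931) in Nod2-/- mice. In 3 Nod2-/- mice it lay below every WT mouse, and the lowest WT mouse, replicate 6, stood well under the next at 1278. The log2 fold change of -0.33 ± 0.16 (SE) did not pass the test, with an adjusted p of 0.243 by edgeR and 0.198 by DESeq2. Exons of Mmp19 share 789 bases with Tmem198b and 212 with an antisense gene on the opposite strand, and the counting is not stated to use strand.

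Neither inhibitor passed the test. Timp2, which blocks many of the proteinases and also takes part in pro-Mmp2 activation (ENSMUSG00000017466.9, chromosome 11, 118301069 to 118355740), had normalized counts of 144 to 247 (median 197) in WT and 145 to 236 (median 177) in Nod2-/- mice, and its log2 fold change was -0.14 ± 0.16 (SE), with an adjusted p of 0.632 by edgeR. Timp3, the inhibitor that binds to the matrix itself (ENSMUSG00000020044.13, chromosome 10, 86300372 to 86349506), had 294 to 540 (median 362) in WT and 223 to 426 (median 369) in Nod2-/- mice. Its log2 fold change was -0.036 ± 0.16 (SE), with an adjusted p of 0.914 by edgeR, and replicate 7 was the only Nod2-/- mouse below every WT mouse. Timp3 lies within Syn3 on the opposite strand, with 1733 shared exonic bases.

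The level of Mmp14 relative to its inhibitors was compared in each mouse as the ratio of counts per kb of exon. Mmp14/Timp2 was 0.560 to 1.06 (median 0.758) in WT and 1.33 to 4.71 (median 1.86) in Nod2-/- mice, and Mmp14/Timp3 was 0.712 to 1.19 (median 0.780) and 1.27 to 5.22 (median 1.58). The ranges of both ratios did not overlap, and both ratios carry the Mmp14 counts already described. On the log2 scale the differences were 1.53 and 1.45, each with a two-sided exact permutation p of 0.00117, and 0.00175 after Benjamini-Hochberg adjustment over 3 ratios (n = 6 and 7). Mmp2/Timp2 was 0.135 to 0.272 (median 0.213) in WT and 0.101 to 0.301 (median 0.142) in Nod2-/- mice, with a log2 difference of -0.45 and an exact permutation p of 0.164. A ratio of RNA levels is not a ratio of proteins or of active enzyme.

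**Figure D5:**
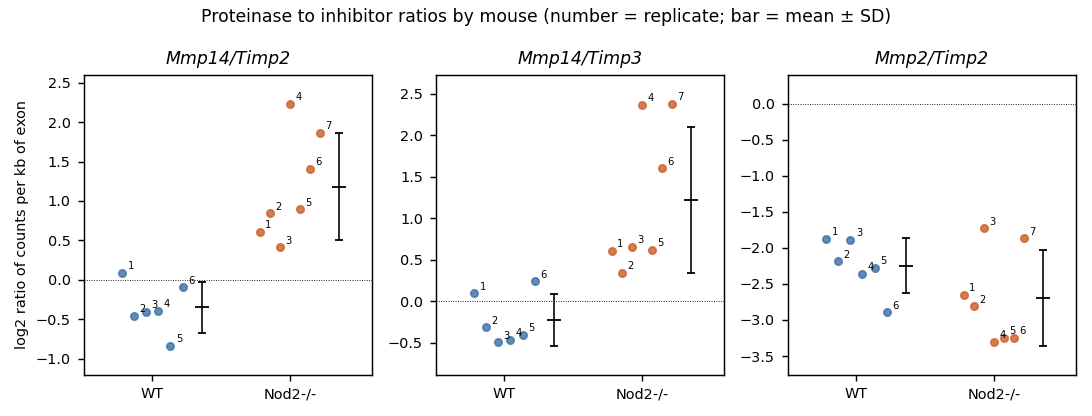
Log2 ratio of counts per kb of exon in each mouse (vertical axis; point with replicate number) for Mmp14/Timp2, Mmp14/Timp3 and Mmp2/Timp2, WT in blue and Nod2-/- in orange, with the mean ± SD beside each group. The groups do not overlap in the panels with Mmp14 and overlap in the Mmp2/Timp2 panel.

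Levels between genes were compared as CPM per kb of exon. In WT mice the order was Mmp19 (22.1 ± 3.60, SD, n = 6), Mmp15 (8.35 ± 1.02), Timp2 (3.06 ± 0.781), Timp3 (2.78 ± 0.673), Mmp14 (2.40 ± 0.654), Mmp2 (0.652 ± 0.213), Mmp12 (0.457 ± 0.308), Mmp13 (0.201 ± 0.158), Mmp9 (0.0287 ± 0.0276) and Mmp25 (0.00208). Only Mmp19, Mmp15 and Mmp14 were set off from the next lower gene by ranges over mice that did not overlap. In Nod2-/- mice Mmp14 (6.85 ± 3.43, SD, n = 7) followed Mmp19 and Mmp15, its range overlapping that of Mmp15 (7.63 ± 1.13) and lying above that of Timp2 (2.78 ± 0.482). Mmp19 (17.6 ± 4.52) stayed first, and the place of Mmp9 (0.642 ± 1.41) ahead of Mmp2 (0.483 ± 0.303) rested on replicate 7.

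Variation between mice within a genotype was described by Spearman's rho of the deviations from the genotype means over the 13 mice, which share library depth and tissue makeup and are no independent test. Mmp15 and Timp3 were the most alike of the tested members (rho 0.808), followed by Mmp13 and Timp3 (0.780) and Mmp12 and Mmp13 (0.687). Mmp14 and Mmp19 ran opposite to each other (-0.742). Among 12831 genes, those most like Mmp14 were Flot1, a lipid raft protein (0.934), and B4galnt1, a ganglioside synthase (0.923). Those most like Mmp12 were Gpnmb, a glycoprotein of lipid-laden macrophages (0.940), and Abr (0.923), and those most like Mmp19 were Hnf4aos (0.984) and Fgfrl1 (0.967). Timp3 was most like Nfatc3 (0.973) and Phlpp2 (0.934), Timp2 like the transporter Abcb1b (0.896) and Adamtsl2 (0.885), and Mmp15 like Hsp25-ps1 (0.918) and Chst14 (0.890). Mmp13 was most like Cmpk2 (0.912) and Zfp69 (0.907), and Mmp2, with lower values, like Gm17655 (0.835) and Abhd12 (0.808).

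Other metalloproteinases and inhibitors in the table were mostly too low to test. Of 22 genes, 6 were tested and 0 passed 5% FDR by edgeR, with 1 higher at an unadjusted p under 0.05 (12.9% of all genes tested), and 4 (Mmp1a, Mmp1b, Mmp10 and Mmp20) had 0 counts in all mice. The broad protease inhibitors made by hepatocytes were the most abundant, Pzp at 110877 ± 26240 (SD, n = 6) normalized counts in WT and 116369 ± 33691 (SD, n = 7) in Nod2-/- mice and Mug1 at 75857 ± 5753 and 65480 ± 9247. Mug2, of the same family, had the second largest fitted change among those tested (0.67 ± 0.22, SE) after Mmp7, the matrilysin of epithelia (1.11 ± 0.78), with adjusted p of 0.106 and 0.405 by edgeR. Mmp7 had a median of 5.74 normalized counts in WT mice, with WT replicate 6 highest at 59.0, and of 29.9 in Nod2-/- mice. It met the expression filter partly through the Nod2-/- mice, so its higher direction was partly fixed by the filter. DESeq2 called 1, Mmp17, a lipid-anchored proteinase, as lower (log2 fold change -1.26, adjusted p = 0.0242), where it called 4.03% of all its genes as lower. Mmp8, the collagenase of neutrophils, was below the filter, with at most 4 counts in a WT mouse and its highest count, 204, in Nod2-/- replicate 7.

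Of the related ADAM, ADAMTS and astacin proteases, 1 passed the test. Of 30 listed, 20 were tested, 16 had a higher fitted level, 6 an unadjusted p under 0.05, all higher, where 12.9% of all genes tested had one as higher, and the median log2 fold change was 0.41. Adam23, a neuronal ADAM without catalytic activity, rose by 0.945 ± 0.211 (SE) from 161 ± 38.0 (SD, n = 6) to 311 ± 103 (SD, n = 7) normalized counts, with an adjusted p of 0.046 by edgeR (0.65% of all genes tested were called as higher). With a mouse left out in turn, the list had 1 call in 4 fits and 0 in 9, those without WT replicates 1, 2, 4 or 5 and those without Nod2-/- replicates 2, 3, 4, 6 or 7. Bmp1, the proteinase that trims the ends of procollagens, had 1741 ± 219 and 2325 ± 402 (0.42 ± 0.12, SE, adjusted p = 0.0807), Adamts6 a log2 fold change of 1.24 ± 0.39 (SE, adjusted p = 0.0923), and Adam9, the other of the pair with the highest levels, -0.13 ± 0.15 (SE, adjusted p = 0.621).

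Proteases that activate the proenzymes did not pass the test. Of 20 genes, 19 were tested, 12 had a higher and 7 a lower fitted level, and 0 passed 5% FDR by edgeR, with 2 higher and 2 lower at an unadjusted p under 0.05 (12.9% and 10.2% of all genes tested) and 1 higher and 2 lower by DESeq2 (4.38% and 4.03%). Plg, which encodes plasminogen, an upstream activator of several proenzymes, had 44449 ± 2683 normalized counts in WT and 47129 ± 7406 in Nod2-/- mice (0.084 ± 0.124, SE, adjusted p = 0.711), and Serpinf2, the plasmin inhibitor, had a log2 fold change of 0.51 ± 0.18 (SE, adjusted p = 0.117). Plaur, the urokinase receptor, and Plgrkt, a plasminogen receptor, had the largest fitted changes, 0.98 ± 0.48 (SE, adjusted p = 0.235) and 0.67 ± 0.20 (SE, adjusted p = 0.0867).

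Substrates of the matrix likewise gave 0 genes past 5% FDR among 24 tested of 25, by edgeR, with 3 at an unadjusted p under 0.05, all higher (12.9% of all genes tested), and 1 higher by DESeq2 (4.38%). The median log2 fold change was 0.17, with 14 higher and 10 lower. Fn1 (fibronectin) and Vtn (vitronectin), both secreted by hepatocytes, were the most abundant, with log2 fold changes of 0.16 ± 0.18 (SE) and 0.41 ± 0.16 (SE) and adjusted p of 0.614 and 0.154. The largest fitted changes were those of the basement membrane protein Nid1 (0.79 ± 0.57, SE, adjusted p = 0.418) and the fibrillar collagen Col5a2 (0.70 ± 0.22, SE, adjusted p = 0.0966).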

How the data were processed

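The authors trimmed reads of stranded, polyadenylated RNA libraries with Trimmomatic 0.33, mapped them to GRCm38 with TopHat2 2.1.1 and deposited raw counts per gene and mouse. The counting program and its use of strand are not given in the sources used here, so overlapping genes are uncertain. The table held 53465 genes and 1 entry without a name, which was left out. The members and gene lists were chosen with earlier results of these data known.

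Tests used edgeR 4.0.16 under R 4.3.3 (TMM, filterByExpr, glmQLFit and glmQLFTest, two-sided, no covariate) and adjusted by Benjamini and Hochberg's method over 13545 genes, which held 99.9% of counts. Single members and ratios were compared with exact permutation tests. Alternatives were DESeq2 1.42.0, voomWithQualityWeights of limma 3.58.1, other normalization and filters (including a minimum of 10 counts per mouse), replicate number as a block, removal of the 20 most abundant genes, leaving out each mouse, and other pseudocounts. The 36 pairs of libraries within a genotype all differed by more than sampling noise (chi-square over its degrees of freedom, 11.6 to 177). Positions, exon lengths and overlaps came from a GENCODE annotation of GRCm38. Named genes were all members, and in each other list the genes past 5% FDR, the 2 most abundant and the 2 with the largest fitted change, with 2 most alike genes per tested member and called genes near Mmp14, Mmp2 and Mmp15. Traf7, Mmp17, Mmp8 and other genes outside this rule were named after their values were seen.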

Additional observations from a re-analysis of the deposited data

Results flagged for a closer look

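In 6 of the 26 groups of normalized counts and ratios examined, 1 mouse stood further from the others than Dixon's 95% criterion allows, where chance gives about 1 in 20 groups if they are independent and normally distributed. These groups share mice and include low, skewed counts, so the number of groups is not read against that rate. Mmp9 in Nod2-/- replicate 7 was at 225.4, with the next mouse at 11.3. Mmp25 in the same mouse was at 27.4, with the next at 1.03, and Mmp25 in WT replicate 4 was at 1.10, a single count, where the other WT mice had 0. Nod2-/- replicate 7 was also the lowest for Mmp15, at 465 with the next at 674, and for Timp3, at 223 with the next at 347. Mmp19 in WT replicate 6 was at 889, with the next at 1278.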

How the results depend on the processing

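The log2 fold changes of the 8 tested members were refitted 163 times, and 151 fits kept the direction and the side of the threshold. Mmp14 lost the threshold with the replicate block (1.32, adjusted p = 0.0883) and without each of 5 mice, with values from 1.26 to 1.64 over all 13 fits. Replicate number 7 occurs only among Nod2-/- mice, so the block also takes that mouse out of the comparison between genotypes. Nod2-/- replicate 7 is 1 of the 5 mice, so these results are not separate. Direction turned for Timp3 under the replicate block (0.082), voomWithQualityWeights (0.068), without Nod2-/- replicate 7 (0.056) and without WT replicate 3 (0.083), and for Mmp12 under voomWithQualityWeights (0.244), without WT replicate 3 (0.051) and, in the permutation difference, with log2(CPM + 0.1) (0.027). With each mouse left out, Timp3 ranged from -0.097 to 0.083 and Mmp12 from -0.40 to 0.051. Mmp13 fell below the filter in 4 of the 13 fits that left out a mouse.

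Members past 5% FDR were 1 higher and 0 lower, and became 2 higher by DESeq2 without outlier replacement (Mmp14 and Mmp9), 0 under the replicate block, and 0 to 1 when a mouse was left out. Over all genes, 88 higher and 69 lower calls became 630 and 579 by DESeq2, 656 and 580 by DESeq2 without outlier replacement, 519 and 324 by voomWithQualityWeights, 17 and 18 under the replicate block, and 20 to 697 and 20 to 459 when a mouse was left out, with both highest counts without WT replicate 3. Replicate numbers did not pair the mice (same-number deviations correlated at -0.302 to 0.304).

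Other metalloproteinases and inhibitors past 5% FDR became 1 lower by DESeq2. ADAM, ADAMTS and astacin proteases past 5% FDR, 1 higher, became 3 by DESeq2, 0 under the replicate block and 0 to 1 when a mouse was left out (0 in 9 of 13 fits). Proenzyme activation became 1 higher and 2 lower by DESeq2, 1 and 1 by voomWithQualityWeights and 0 to 1 higher when a mouse was left out, and matrix substrates 1 higher by DESeq2 and voomWithQualityWeights and 0 to 3 when a mouse was left out. The differences of the 3 ratios kept direction and side of the threshold in all fits, from 1.36 to 1.66 for Mmp14/Timp2, 1.26 to 1.595 for Mmp14/Timp3 and -0.61 to -0.35 for Mmp2/Timp2. The causes of these changes were not tested. Depth limits Mmp9 and Mmp25, which had at most 11 counts in every mouse but 1.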
